A study of Mus musculus with 2 samples.

Results

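Nicotinic acetylcholine receptors were read through 9 genes: Chrna3, Chrna4, Chrna5, Chrna6, Chrna7 and Chrna9, which encode alpha subunits, and Chrnb2, Chrnb3 and Chrnb4, which encode beta subunits. They are 9 of the 32183 genes in both count tables and were chosen by name. The cells came from the celiac and superior mesenteric ganglia of the mouse, the sympathetic ganglia in front of the aorta whose axons supply the abdominal organs. The 2 libraries form 1 group, with no treatment named in the labels. The study used 20 mice, males and females in equal number, aged 7 to 8 weeks; the sources used here give neither their strain nor how they were divided over the libraries. Digested and triturated tissue was loaded on 10x Genomics 3' v3.1 chemistry, which counts unique molecular identifiers (UMIs), about 1 per captured transcript. All contrasts are therefore between cell populations inside these libraries. Their p-values rest on the spread between 2 libraries that may differ only technically, a spread partly or wholly pooled over genes.

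In a sympathetic ganglion, preganglionic axons from the spinal cord release acetylcholine onto noradrenergic neurons, and nicotinic receptors turn this into a fast excitatory current. The receptor is a ring of subunits around a cation channel. In autonomic neurons the classical ganglionic receptor combines alpha3 with beta4, and alpha5 or beta2 can join it as accessory subunits. Alpha7 and alpha9 can form channels of their own kind alone, alpha9 often together with alpha10, and these are highly permeable to calcium. Alpha4 with beta2 is the common brain receptor, and alpha6 and beta3 are best known from dopamine neurons and the retina.

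Library 1 held 94521010 UMIs and library 2 held 95235439, at a median of 6483 and 6498 UMIs per barcode. After 510 and 624 doublets were removed, 12084 and 11655 cells remained; 59 of the remaining barcode sequences occurred in both libraries. Cell types are named for cells like those types by marker genes, with the 9 subunit genes left out of clustering and naming. Neurons made up 459 and 419 cells. Among them were Shox2-rich neurons (86 and 76 cells) and Rxfp1-rich neurons (83 and 71 cells). They were set apart from each other by the levels of Shox2, a homeobox transcription factor, and Rxfp1, the relaxin receptor, over whole clusters. On the UMIs used for clustering, Shox2-rich neurons had 94.1 and 70.5 CPM (defined below) of Shox2 and 77.4 and 75.3 CPM of Rxfp1. Rxfp1-rich neurons had 4.95 and 2.47 CPM of Shox2 and 360 and 312 CPM of Rxfp1. The name Shox2-rich is thus relative to the Rxfp1-rich. Whether the Shox2-rich cluster mixes kinds of neuron was not tested. Median depth was 17883.5 and 21431.5 UMIs in Shox2-rich neurons, and 23635 and 22926 in Rxfp1-rich neurons. Shallow droplets with neuron markers numbered 632 and 622, at a median of 1963.5 and 2003 UMIs, and are called low-UMI droplets. Most of them (412 and 391) form a cluster that the marker rule left unnamed and that collagen genes set apart, and that is not counted among the neurons. The others form 2 clusters, of 175 and 184 and of 45 and 47 droplets, that are counted among the neurons and make up about as many of them as the deep cells do. One more neuron cluster of 70 and 41 cells, set apart by genes of immune and smooth muscle cells such as Cd74, Tpsb2 and Acta2, is called other neurons. It is counted among the neurons but belongs to neither type. Its Shox2 level on the UMIs used for clustering, 88.4 and 76.9 CPM, was about that of Shox2-rich neurons. Its Rxfp1 level was 102 and 94.7 CPM.

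Chrna5, Chrna3 and Chrnb4 lie next to each other on chromosome 9 of GRCm38, the assembly mm10 (GENCODE M21 annotation). Chrna5 spans 54980880-55007779 on the plus strand, Chrna3 55010111-55026562 and Chrnb4 55028154-55048779 on the minus strand. Only 2331 bases part Chrna5 from Chrna3 and 1591 bases part Chrna3 from Chrnb4, so the 3 genes share 67.9 kb. Chrna7 lies alone on chromosome 7 (63098692-63212569, minus strand) and is the longest of the 9 at 114 kb, 3.96% of it exonic. Chrna9 lies on chromosome 5 (65934921-65977326, plus strand) and Chrnb2 on chromosome 3 (89746195-89764632, minus strand). Chrna4 is on chromosome 2 (181018380-181043546, minus strand), and Chrnb3 (27368711-27399730, plus strand) and Chrna6 (27403212-27413944, minus strand) are neighbours on chromosome 8. Chrnb2 overlaps Adar on the opposite strand and Chrnb4 overlaps the antisense gene Gm47877. On the same strand, 2 short annotated loci overlap Chrna9 and 1 overlaps Chrna7. The sources used here do not say whether counting used strand, so the values of these 4 genes may hold reads of their neighbours.

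The promoters of the 4 genes on which the neuron results turn are shown first: Chrna3 and Chrnb4, which moved together over populations, Chrna7, which parted the neuron types, and Chrna5, which passed between the types with edgeR but not with DESeq2. Each runs from 250 bases before to 50 bases after the transcript start in RefSeq (GRCm38.p6), 5' to 3' on the gene's own strand. Capitals mark GC boxes, the letters GGGCGG or their complement CCGCCC. RefSeq gives Chrna5 2 starts.
Chrna3 (chr9:55026513-55026812, minus strand): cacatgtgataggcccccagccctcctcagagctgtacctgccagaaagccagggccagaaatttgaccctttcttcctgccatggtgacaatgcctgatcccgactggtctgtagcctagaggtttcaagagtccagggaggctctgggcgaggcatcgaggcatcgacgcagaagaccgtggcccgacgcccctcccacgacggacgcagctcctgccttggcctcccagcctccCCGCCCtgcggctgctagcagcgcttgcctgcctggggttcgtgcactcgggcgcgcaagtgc
Chrnb4 (chr9:55048495-55048794, minus strand): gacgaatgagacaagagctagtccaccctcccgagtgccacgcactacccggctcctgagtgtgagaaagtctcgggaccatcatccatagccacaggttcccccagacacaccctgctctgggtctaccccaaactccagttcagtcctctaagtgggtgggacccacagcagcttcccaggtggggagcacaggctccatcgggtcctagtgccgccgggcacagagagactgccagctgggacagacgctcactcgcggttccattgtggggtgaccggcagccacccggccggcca
Chrna5, first start (chr9:54980630-54980929, plus strand): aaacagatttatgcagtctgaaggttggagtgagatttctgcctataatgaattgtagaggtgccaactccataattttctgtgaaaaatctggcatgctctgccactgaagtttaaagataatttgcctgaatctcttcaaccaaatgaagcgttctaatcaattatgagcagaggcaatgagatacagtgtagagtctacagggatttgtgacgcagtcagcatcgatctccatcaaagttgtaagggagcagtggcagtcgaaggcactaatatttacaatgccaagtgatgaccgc
Chrna5, second start (chr9:54981238-54981537, plus strand): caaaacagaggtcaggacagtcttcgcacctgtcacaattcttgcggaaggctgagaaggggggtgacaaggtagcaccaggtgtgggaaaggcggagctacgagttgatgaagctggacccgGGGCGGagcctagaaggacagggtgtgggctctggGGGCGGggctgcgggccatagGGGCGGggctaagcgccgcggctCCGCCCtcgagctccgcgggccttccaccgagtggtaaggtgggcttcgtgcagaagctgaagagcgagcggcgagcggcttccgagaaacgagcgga
Chrna7 (chr7:63212477-63212776, minus strand): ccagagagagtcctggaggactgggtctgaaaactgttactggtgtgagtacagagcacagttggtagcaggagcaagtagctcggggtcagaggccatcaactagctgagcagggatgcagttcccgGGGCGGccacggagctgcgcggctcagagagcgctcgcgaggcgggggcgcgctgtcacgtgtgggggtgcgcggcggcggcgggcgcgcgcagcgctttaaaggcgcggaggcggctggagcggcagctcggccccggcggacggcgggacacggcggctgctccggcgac

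The GC box stood 1 time in the Chrna3 window, 1 time in that of Chrna7 and 4 times at the second Chrna5 start, while the windows of Chrnb4 and of the first Chrna5 start held none. Of all 32851 RefSeq mouse promoters of this length, 35.7% held it. GC content was 64.3% for Chrna3, 63% for Chrnb4 and 70.0% for Chrna7, but 41.3% at the first and 65% at the second Chrna5 start, against a median of 52.7% over all promoters. The E-box letters CANNTG, read by proneural factors and by Hand2, occurred 3 times for Chrna3 and 2 times in each of the other 4 windows; 72.3% of all promoters held them. The letters ATTA or TAAT, a core of homeodomain sites, occurred 6 times at the first Chrna5 start and not in the other windows shown, against 58.0% of all promoters. Capitals and counts describe letters only.

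Of the 9 genes, 3 had almost no UMIs. Chrna4 and Chrna6 had 0 UMIs in both libraries, which allows a level of up to 0.0158 CPM (UMIs per 1000000 UMIs; 3 counts over both libraries, counting error only). Chrnb3 had 0 and 1 UMI, the 1 in a Shox2-rich neuron. The other 6 were counted in both libraries at close totals: Chrna3 with 3887 and 3722 UMIs, Chrna7 with 1641 and 1498, Chrnb4 with 1522 and 1521, Chrna9 with 406 and 393, Chrna5 with 389 and 374 and Chrnb2 with 269 and 230. Of the 7 other subunits of the receptor, the muscle subunit Chrnb1 had 203 and 215 UMIs, close to Chrnb2, and Chrne had 13 and 23. Chrna10, the usual partner of Chrna9, had 4 and 7 UMIs, and Chrna1, Chrna2, Chrnd and Chrng had at most 4 UMIs in a library.

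All 6 detected genes were higher in neurons than in all other named cells. The unnamed clusters, of 412 and 391 and of 20 and 20 droplets, were in neither group; over all UMIs the neurons had 209.7 and 220 CPM of Chrna3 and the larger of these clusters 288 and 278 CPM. For the test, the UMIs of every cell were divided at random into one portion for clustering and another for testing, and the testing portion was summed per library. Chrna3 stood at 220 and 226 CPM in neurons, against 28.1 and 27.5 CPM in all other cells, a log2 fold change of 2.86 (SE 0.08). Chrnb4 stood at 78.2 and 90.0 CPM in neurons, against 12.0 and 11.0 CPM elsewhere (log2 2.73, SE 0.11). Each gene's lowest neuron sum lay far above its highest sum elsewhere.

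Chrna7 had 139 and 127 CPM in neurons, against 9.09 and 9.69 CPM in the other cells (log2 3.69, SE 0.10). Chrna9, best known from hair cells of the ear, had 43.1 and 47.8 CPM in neurons, against 2.14 and 1.99 CPM elsewhere, the steepest step of the 6 at log2 4.32 (SE 0.18). Chrna5 had 28.2 and 26.1 CPM in neurons and 2.67 and 2.35 CPM elsewhere (log2 3.29, SE 0.20). Chrnb2 was the lowest of the 6, at 10.8 and 10.4 CPM in neurons and 2.36 and 1.89 CPM elsewhere (log2 2.18, SE 0.28). Its adjusted p was 3.84e-05 and that of the other 5 at most 6.81e-08, by the quasi-likelihood test of edgeR, adjusted after Benjamini and Hochberg over all genes. Of the 18092 genes tested, 69.0% passed, 31.8% as higher and 37.2% as lower, so a pass alone says little here; the median log2 fold change of the 6 was 3.08, and that of all genes tested -0.12. Without the cluster set apart by other cells' genes, with the unnamed neuron-like droplets counted as neurons, or with deep clusters only, all 6 still passed.

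**Figure D1:**
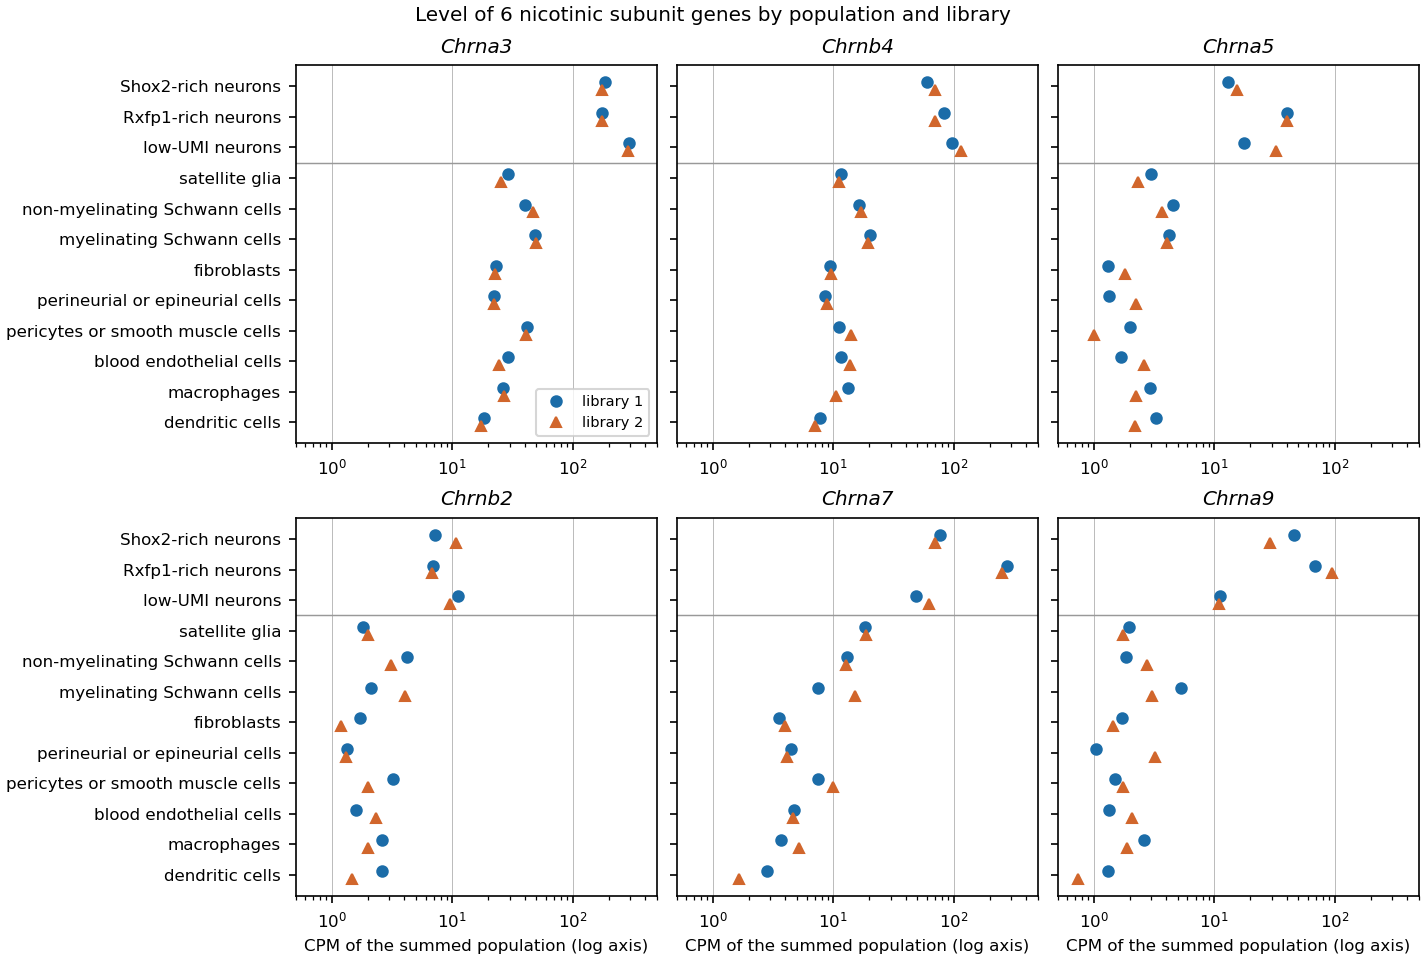
Level of 6 nicotinic subunit genes in 12 populations, in CPM over all UMIs on a log axis; circles are library 1 and triangles library 2, and the line parts neurons and low-UMI droplets above from non-neuronal classes below. Chrna3 and Chrnb4 are close in both neuron types, while Chrna7 is at 276 and 252 CPM in Rxfp1-rich neurons and 18.3 and 18.9 CPM in satellite glia.

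Chrna7 set the neuron types apart. Over all UMIs, Shox2-rich neurons averaged 73.5 ± 4.11 CPM of it and Rxfp1-rich neurons 264 ± 16.9 CPM (SD, n = 2 libraries). On the testing UMIs the Shox2-rich sums were 69.4 and 70.7 CPM and the Rxfp1-rich sums 252 and 247 CPM, at log2 -1.88 (SE 0.16, 95% interval -2.19 to -1.57). The adjusted p was 1.46e-29 by edgeR and at most 8.26e-05 in the 6 alternatives that gave a test, DESeq2 included, with log2 values from -1.91 to -1.88. The libraries taken alone gave -1.86 and -1.80.

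Chrna5 followed in the same direction at far lower counts. Shox2-rich neurons had 13.2 and 13.2 CPM (11 testing UMIs in each library), Rxfp1-rich neurons 41.5 and 37 CPM; the gene was lower in Shox2-rich neurons in both libraries (log2 -1.62, SE 0.36; adjusted p = 0.000121 by edgeR). That call was lost with DESeq2 (log2 -1.62, adjusted p = 0.77) and with another random split of the UMIs (log2 -1.08, adjusted p = 0.079). Alpha5 is the accessory subunit whose gene neighbours Chrna3.

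Chrna3 and Chrnb4, the ganglionic pair, did not pass the test between the types. Shox2-rich neurons had 187 and 186 CPM of Chrna3 and Rxfp1-rich neurons 188 and 184 CPM, a log2 difference of -0.05 with a 95% interval from -0.33 to 0.23 (adjusted p = 0.92, edgeR). For Chrnb4 the Shox2-rich sums were 52.6 and 77.9 CPM and the Rxfp1-rich sums 89.0 and 66.7 CPM. Its libraries pointed opposite ways, at -0.76 and 0.22, and the fitted value of -0.32 had a 95% interval from -0.71 to 0.07 (adjusted p = 0.40, edgeR). Chrnb2 had 6 and 7 testing UMIs in Shox2-rich neurons and fell below the filter on low counts; over all UMIs it had 7.16 and 10.8 CPM there, against 6.92 and 6.80 CPM among the Rxfp1-rich.

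Chrna9 was lower in Shox2-rich neurons, but by unlike amounts in the libraries. Shox2-rich neurons had 50.2 and 29.9 CPM of it and Rxfp1-rich neurons 68.2 and 109 CPM. The fitted log2 fold change was -1.16 (SE 0.22; adjusted p = 3.70e-06, edgeR), while library 1 alone gave -0.44 and library 2 alone -1.86, and DESeq2 gave an adjusted p of 0.61. In all, 3 of the 5 members tested passed, each lower in Shox2-rich neurons. Over all 9574 genes tested, 11.6% passed, 5.34% as higher and 6.31% as lower; the median log2 fold change was -1.16 over the 5 members and 0.01 over all genes. DESeq2 kept 1 of the 3, Chrna7. The 3 are also the longest of the 5 genes: Chrna7, Chrna9 and Chrna5 span 114, 42.4 and 26.9 kb. Chrnb4 and Chrna3 span 20.6 and 16.5 kb. Whether gene length or nuclear RNA bears on the difference between the types was not tested.

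The 2 types also differed in markers of other cells. Over all UMIs, the 11 satellite glia markers summed to 2389 and 1588 CPM for the Shox2-rich and 1277 and 1047 CPM for the Rxfp1-rich. The 10 markers of perineurial or epineurial cells summed to 406 and 572 CPM for the Shox2-rich and 1630 and 1810 CPM for the Rxfp1-rich, and the 10 of non-myelinating Schwann cells to 1618 and 1314 against 2313 and 2244 CPM. No marker of these 3 lists was at 0 in either type. Whether the neurons made these transcripts themselves was not tested. Their part in the Chrna7 difference was not tested; in the classes these markers name, Chrna7 itself lay between 4.13 and 18.9 CPM, below either neuron type. Of 10 genes that mark sympathetic neurons (among them Th, Dbh, Slc18a2, Ddc, Phox2a, Hand2, Prph, Stmn2 and Snap25), 8 did not pass between the types, and Slc18a2 and Snap25 were higher in Shox2-rich neurons by 0.48 and 0.46 on the log2 scale.

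The order of the types for Chrna7 was the same in shares of cells. To set shares of cells side by side, cells were thinned to 5000 UMIs each and shallower ones left out (3 and 5 Shox2-rich neurons, 1 and 2 Rxfp1-rich neurons and 371 and 334 blood endothelial cells). At that depth, 26.5% of Shox2-rich neurons in library 1 (exact 95% binomial interval 17.4% to 37.3%) and 31.0% in library 2 (20.5% to 43.1%) had a Chrna7 UMI. Of Rxfp1-rich neurons, 76.8% (66.2% to 85.4%) and 66.7% (54.3% to 77.6%) had one. The intervals, which cover counting error only, did not overlap in either library. Blood endothelial cells, taken as the class from which to read free RNA, had a Chrna7 UMI in 2.41% and 2.36% of cells at the same depth; their own median depth was 6991.5 and 6999 UMIs. With all UMIs, 50% and 48.7% of the Shox2-rich had a UMI, 96.4% and 93.0% of the Rxfp1-rich had one, and 3.82% and 3.62% of endothelial cells.

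For Chrna3 the thinned shares of the types lay close together, at 56.6% and 53.5% (Shox2-rich) and 53.7% and 55.1% (Rxfp1-rich), against 12.8% and 11.1% of blood endothelial cells. Chrnb4 was seen in 26.5% and 23.9% of Shox2-rich neurons, 32.9% and 27.5% of Rxfp1-rich neurons and 6.26% and 6.73% of endothelial cells. Chrna5 was seen in 6.02% and 7.04% of Shox2-rich neurons, against 23.2% and 11.6% of Rxfp1-rich neurons, and here the intervals overlapped in library 2. Chrnb2, at 1.22% to 5.80% of neurons, was too sparse to order the types.

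**Figure D2:**
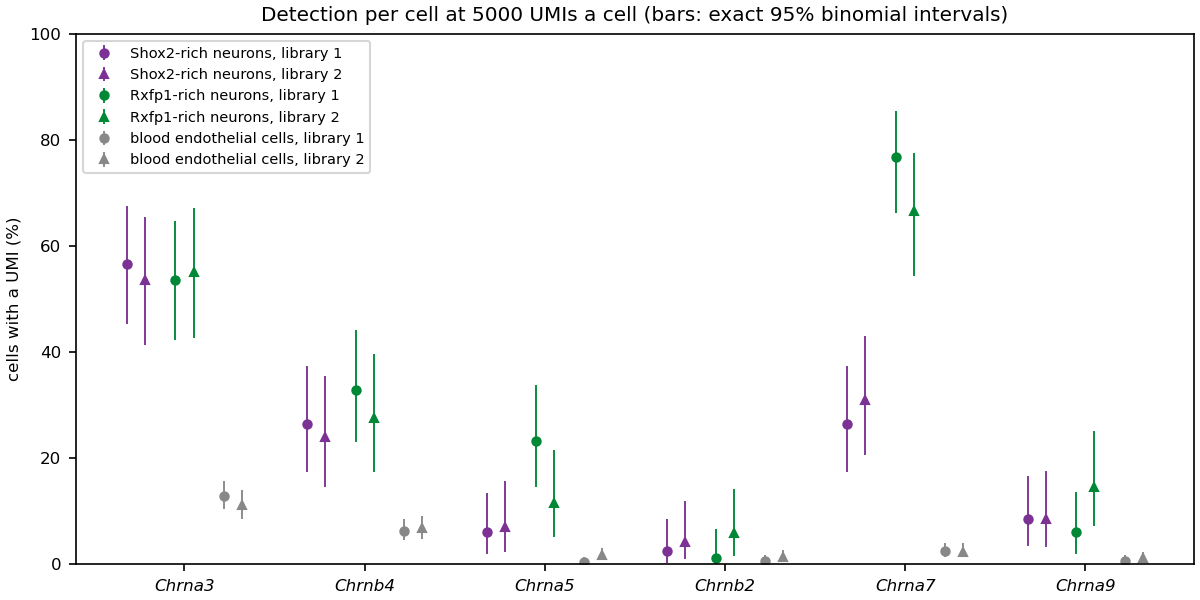
Share of cells with a UMI of each gene after thinning to 5000 UMIs, in percent, for Shox2-rich neurons, Rxfp1-rich neurons and blood endothelial cells; circles are library 1, triangles library 2, bars exact 95% binomial intervals. Chrna7 is the gene whose intervals for the 2 neuron types stand apart in both libraries, at 26.5% and 31.0% against 76.8% and 66.7%.

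UMIs per neuron showed 3 kinds of spread. Chrna3 had a median of 3 UMIs per neuron in both types and both libraries, with a highest neuron of 11 to 14. Chrna7 had a median of 0.5 and 0 in Shox2-rich neurons and 6 and 5 in Rxfp1-rich neurons. Yet 8 and 6 Shox2-rich neurons (9.30% and 7.89%) held 5 or more Chrna7 UMIs, up to 14 and 23. Of Rxfp1-rich neurons, 63.9% and 50.7% held as many. Whether those Shox2-rich neurons were high in Rxfp1 was not tested.

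Chrna9 sat in a handful of neurons. Only 10 and 13 Shox2-rich neurons had a Chrna9 UMI, and the 5 highest of them held 88.3% and 83.7% of all Chrna9 UMIs of the type, with up to 30 and 28 UMIs in a single cell. Among Rxfp1-rich neurons 24 and 21 had one, the 5 highest held 66.2% and 72.1%, and the highest cell had 19 and 29. For Chrna3 the 5 highest neurons held between 14.3% and 18% of the UMIs. Neurons with 5 or more Chrna9 UMIs numbered 3 and 2 among the Shox2-rich (3.49% and 2.63%) and 7 and 8 among the Rxfp1-rich (8.43% and 11.3%). In the 7 and 8 Rxfp1-rich ones, Chrna7 stood at 260 and 290 CPM, against 296 and 237 CPM in Rxfp1-rich neurons without a Chrna9 UMI, and Chrna3 at 148 and 182 against 178 and 188 CPM. Chrnb4 was at 65.1 and 58.0 against 96.9 and 79.3 CPM and Chrna5 at 0 and 12.4 against 38.6 and 40.6 CPM, from 0 and 3 Chrna5 UMIs in the cells with Chrna9. In the 3 and 2 Shox2-rich ones, Chrna5 was at 55.1 and 0 CPM, from 4 and 0 UMIs. Shox2-rich neurons without a Chrna9 UMI had 10.6 and 14.9 CPM of Chrna5, so library 1 went the other way. The Chrna9 level of either type thus rests on these few cells.

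**Figure D3:**
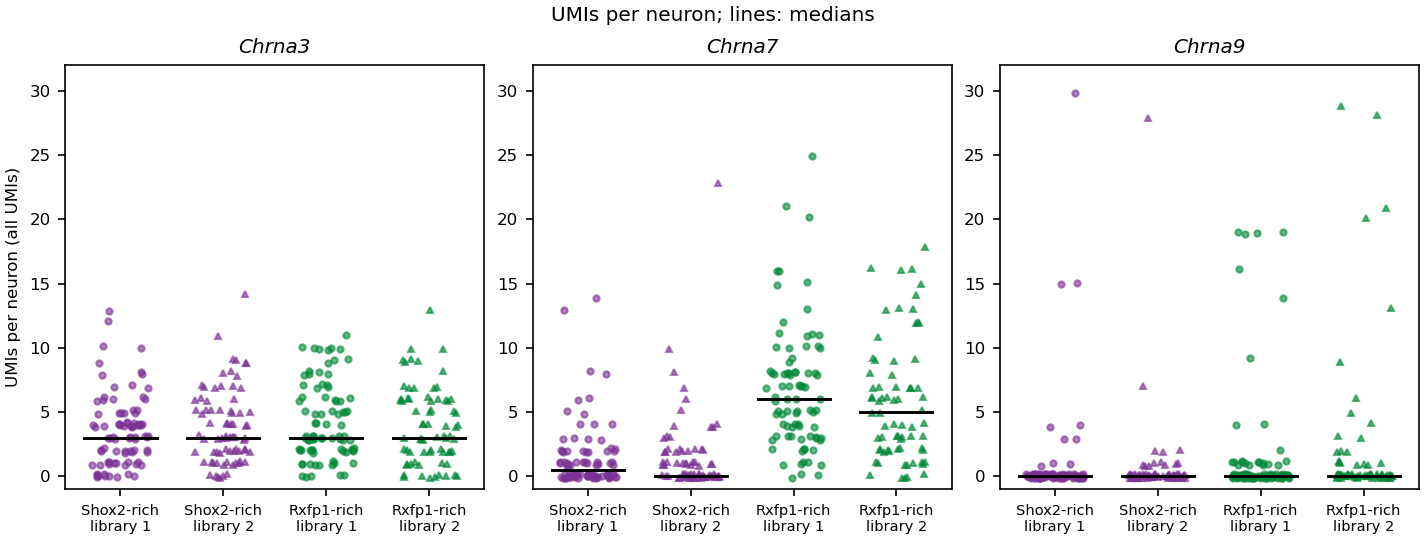
UMIs per neuron of Chrna3, Chrna7 and Chrna9 over all UMIs, for Shox2-rich and Rxfp1-rich neurons in each library; each point is a neuron, slightly shifted at random to be visible, and lines are medians. Chrna3 has a median of 3 throughout, Chrna7 medians of 0.5 and 0 against 6 and 5, and Chrna9 a median of 0 with single neurons up to 30.

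Most neurons of the 2 deep types had UMIs of several subunit genes when all UMIs were used. Of low-UMI droplets, 38.8% and 37.0% had none and 42.4% and 39.1% had 1. With all UMIs, a Shox2-rich neuron had UMIs of 2.44 and 2.74 of the 9 genes on average and a Rxfp1-rich neuron of 3.54 and 3.41; 13.95% and 30.3% of Shox2-rich neurons had 4 or more, against 54.2% and 52.1% of Rxfp1-rich neurons. Thinned to 5000 UMIs the averages were 1.27 and 1.30 against 1.94 and 1.81. Of the thinned Shox2-rich neurons, 22.9% and 22.5% had none of the genes and 34.9% and 38.0% had 1. Among the thinned Rxfp1-rich neurons, 3.66% and 11.6% had none and 30.5% and 26.1% had 1. In blood endothelial cells at that depth the average was 0.23 and 0.24. Chrna3 and Chrnb4 UMIs met in 58.1% and 64.5% (Shox2-rich) and 69.9% and 60.6% (Rxfp1-rich) of neurons with all UMIs.

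At equal depth, cells with and without a Chrna3 UMI were compared for Chrnb4. Among thinned Shox2-rich neurons, Chrnb4 was seen in 29.8% and 26.3% of cells with Chrna3 and in 22.2% and 21.2% of cells without it. Among Rxfp1-rich neurons it was seen in 31.8% and 31.6% of cells with Chrna3 and 34.2% and 22.6% of cells without. Chrna3 and Chrna7 met in 15.7% and 18.3% of thinned Shox2-rich neurons and 41.5% and 40.6% of Rxfp1-rich ones. These shares come from 69 to 83 neurons of a type in each library and are given as a description.

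Low-UMI droplets differed in their subunits from the 2 deep neuron types. Against Shox2-rich and Rxfp1-rich neurons together, Chrna3 was higher (296 and 282 CPM, against 187 and 185 CPM; log2 0.64, SE 0.13, adjusted p = 4.98e-06) and so was Chrnb4 (96.7 and 112 CPM, against 72.5 and 72.3 CPM; log2 0.53, adjusted p = 0.00415, both edgeR). DESeq2 did not call Chrnb4 (adjusted p = 0.27). Chrna7 was lower (49.1 and 55.9 CPM, against 169 and 157 CPM; log2 -1.63, SE 0.18), as was Chrna9 (16.8 and 9.55 CPM, against 60.1 and 68.7 CPM; log2 -2.28, SE 0.30). Chrna5 and Chrnb2 did not pass, at log2 -0.28 and 0.41. Of 11111 genes tested, 72.3% passed, 34.9% as higher and 37.4% as lower. Over all UMIs, levels like those of the droplets were seen in the deep cluster called other neurons, at 245 and 310 CPM of Chrna3. That cluster had 86.5 and 60.2 CPM of Chrna7 and 12.4 and 1.97 CPM of Chrna9.

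These droplets differed from the deep neurons in most of what was measured. Malat1, a long noncoding RNA kept in the nucleus, took 0.836% and 0.961% of their UMIs, while the Shox2-rich had 7.20% and 7.64% and the Rxfp1-rich 7.93% and 7.97%. Other neurons lay between, at 2.55% and 2.42%. Of the 10 sympathetic neuron genes, 9 were higher in low-UMI droplets and Snap25 was lower. Over all UMIs the 10 summed to 11129 and 11526 CPM in the droplets and 9560 and 10609 CPM in other neurons. They summed to 5681 and 5537 CPM in Shox2-rich and 4896 and 4626 CPM in Rxfp1-rich neurons. Satellite glia markers summed to 5108 and 3907 CPM and fibroblast markers to 2559 and 2452 CPM in low-UMI droplets, where the fibroblast markers of deep neurons summed to 670 and 432 CPM (Shox2-rich) and 339 and 773 CPM (Rxfp1-rich). Of the other lists, 7 of 10 chaperone genes were higher and 0 lower, and 3 of 13 postsynaptic genes were higher and 8 lower (medians log2 1.22 and -0.94, against -0.07 over all genes, of which 34.9% were higher and 37.4% lower). The 2 members lower here, Chrna7 and Chrna9, span 114 and 42.4 kb, and the 2 that were higher, Chrna3 and Chrnb4, span 16.5 and 20.6 kb. Whether depth, nuclear RNA or cell type accounts for the profile was not tested, and the sources used here do not say whether intron reads were counted.

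Outside neurons, subunit UMIs were read against those of the 10 sympathetic neuron genes, as a gauge of neuron RNA free in the suspension. The 10 sympathetic neuron genes summed to 1240 and 1245 CPM over all non-neuronal cells and to between 789.7 and 2097 CPM in the 9 classes of at least 100 cells per library. A single source of free RNA keeps its genes in 1 ratio in every class. For every 1000 UMIs of the 10 genes, Chrna3 had 19.6 to 28.1 UMIs in the 9 classes, highest in pericytes or smooth muscle cells. Low-UMI droplets had 26.6 and 25 of it. Chrnb4 had between 7.57 and 12.3 in the classes and 8.77 and 10.1 in low-UMI droplets. The Chrna3 ratio of Shox2-rich neurons was 32.5 and 31.9, that of Rxfp1-rich neurons 36.0 and 37.8, above the range of the classes in both. For Chrnb4 it was 10.5 and 12.6 in Shox2-rich neurons, about the upper end of that range, and 16.9 and 15.2 in Rxfp1-rich neurons, above it.

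Chrna7 had a higher ratio in satellite glia, the cells that wrap the neuron bodies, than in the other classes. There it had 14.1 and 14.6 UMIs per 1000, against 2.05 to 7.27 in the other 8 classes and 4.35 and 5.38 in low-UMI droplets. In neurons it had 13.4 and 12.7 per 1000 (Shox2-rich), 56.4 and 54.5 (Rxfp1-rich) and 9.04 and 5.67 (other neurons), and 20.7 and 17.7 over all neurons. The Chrna7 ratio of satellite glia was thus about that of Shox2-rich neurons, while their Chrna3 ratio, 22.7 and 19.6, was below that of Shox2-rich neurons. On the testing UMIs, satellite glia had 17.5 and 19.5 CPM of Chrna7, against 6.22 and 6.39 CPM in all other non-neuronal cells, at log2 1.59 (SE 0.11; adjusted p = 2.00e-11, edgeR). The call held in all 7 alternatives, DESeq2 and a finer clustering included, with log2 values from 1.55 to 1.76. Of the 6 members tested it alone passed in satellite glia, where 71.4% of the 17468 genes tested passed, 34.2% as higher and 37.1% as lower; with the finer clustering Chrna3 passed as well (log2 0.19, adjusted p = 0.018, edgeR). Chrna3 and Chrnb4 had log2 fold changes of 0.01 and 0.04 there.

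Thinned to 5000 UMIs, 7.86% (exact interval 6.69% to 9.17%) and 7.81% (6.62% to 9.14%) of satellite glia had a Chrna7 UMI, above the 2.41% and 2.36% of endothelial cells by intervals that did not overlap (upper bounds 3.94% and 4.01%). The UMIs were spread thinly: 309 of 2973 and 283 of 2834 satellite glia held any with all UMIs, 251 and 218 of these held 1, and the highest cell held 4 and 7. Divided at the median share of neuron-only UMIs, the 1487 and 1417 satellite glia above it had 20.8 and 21.6 CPM of Chrna7, against 16.8 and 17.3 CPM in those below, while Chrna3 had 44.2 and 38.3 against 20.8 and 17.8 CPM. In blood endothelial cells, Chrna7 had 9.55 and 8.93 CPM above and 2.86 and 2.93 CPM below their median. By cluster, however, Chrna7 was at 13.8 and 16.2 CPM in one satellite cluster and 26.8 and 26.8 CPM in another. The neuron-only genes stood at 961 and 983 CPM in the first and 1919 and 1881 CPM in the second. The remaining satellite cluster (370 and 322 cells) had 19.1 and 11.1 CPM of Chrna7. Its ratio was 14.1 and 8.42 UMIs per 1000 of the neuron-only genes, against 14.0 to 16.5 in the other satellite clusters. Of the 10 neuron-only genes, 4 were themselves higher in satellite glia, among them Hand2 (log2 0.37), Stmn2 (0.11) and Prph (0.10). The part of doublets of neurons and glia that the caller missed was not tested. Malat1, the nuclear RNA, took 7.98% and 8.57% of satellite glia UMIs, the highest share of the classes. In non-myelinating Schwann cells it took 7.23% and 7.77%. By cluster it took 6.21% and 6.65% in the first satellite cluster and 11.7% and 12.4% in the second. Whether nuclear RNA or intron reads bear on Chrna7 in satellite glia was not tested.

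**Figure D4:**
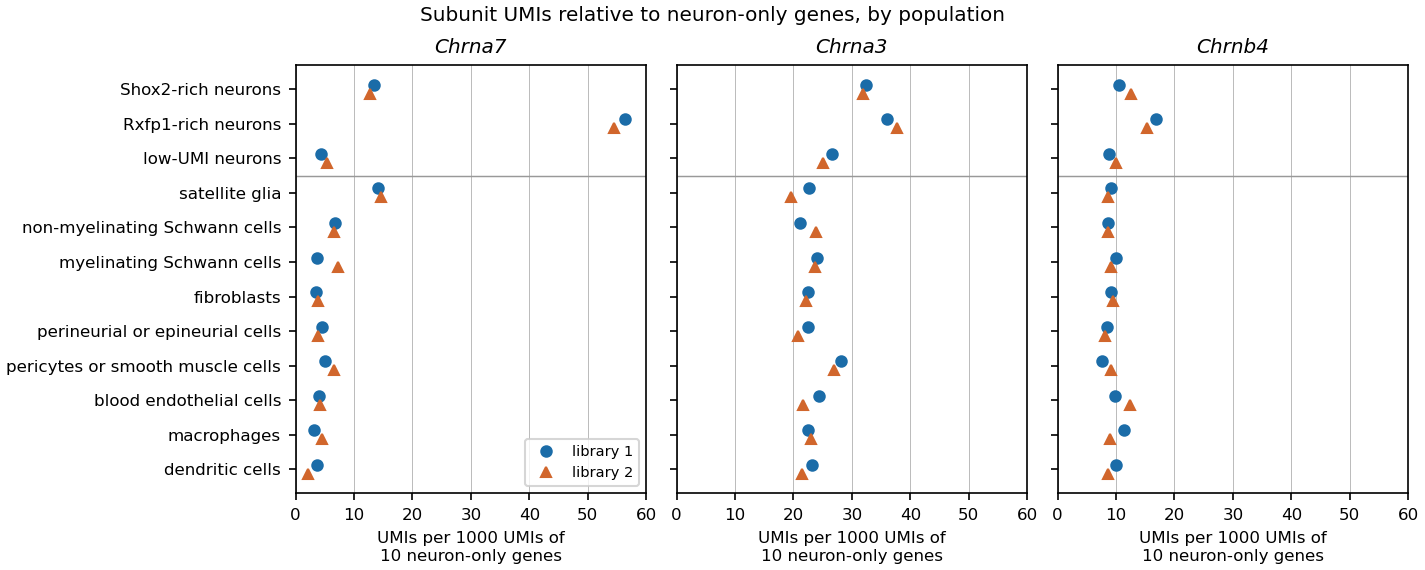
UMIs of Chrna7, Chrna3 and Chrnb4 per 1000 UMIs of 10 neuron-only genes, by population; circles are library 1 and triangles library 2, and the line parts neurons and low-UMI droplets from non-neuronal classes. Chrna3 stays between 19.6 and 28.1 and Chrnb4 between 7.57 and 12.3 in the non-neuronal classes, while Chrna7 is at 14.1 and 14.6 in satellite glia and at most 7.27 in the others. Among neurons, the Shox2-rich stand at 13.4 and 12.7 for Chrna7 and the Rxfp1-rich at 56.4 and 54.5.

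Non-myelinating Schwann cells, the glia of thin axon bundles, passed for 5 members at once. Chrna3 (38.1 and 45.5 CPM, against 26.98 and 25.5 CPM in the other non-neuronal cells), Chrnb4 (16.7 and 16.9, against 11.4 and 10.3 CPM), Chrna7 (14.4 and 13.6, against 8.47 and 9.24 CPM), Chrna5 and Chrnb2 were higher by 0.62 to 0.94 on the log2 scale, with adjusted p from 1.37e-11 to 0.0132 by edgeR. Here 56.1% of the 17234 genes tested passed, 25.4% as higher and 30.8% as lower. Of these 5 calls, DESeq2 kept that of Chrna3. All 10 neuron-only genes were higher in these cells too, by 0.59 to 0.81, and the ratio of Chrna3 to them, 21.1 and 23.9 per 1000, was within the range of the other classes. The Chrna7 ratio of 6.81 and 6.56 rested on 111 and 108 UMIs. Among classes of at least 100 cells per library, satellite glia were higher in both libraries. Myelinating Schwann cells were higher in library 2 alone (7.27 from 15 UMIs, but 3.66 in library 1). The rest were lower, with pericytes or smooth muscle cells at 5.05 and 6.54.

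The remaining calls lay in other classes. Chrna7 was lower than in all other non-neuronal cells in dendritic cells (log2 -1.46), fibroblasts (-1.09), macrophages (-0.80), blood endothelial cells (-0.75) and perineurial or epineurial cells (-0.70). In dendritic cells it rested on 8 and 5 testing UMIs, with plain log2 ratios of -1.44 in library 1 and -2.47 in library 2. Satellite glia, themselves high in Chrna7, are part of the cells each was set against. In these comparisons 61.8%, 65.5%, 64.5%, 62.4% and 51.7% of genes passed, in the order given, and 32.9%, 33.5%, 34.4%, 33% and 27.9% passed as lower; in fibroblasts 32% passed as higher. Of these 5 calls, DESeq2 kept that in fibroblasts. Chrna3 was higher in pericytes or smooth muscle cells (43.8 and 47.3, against 27.3 and 26.5 CPM; log2 0.84, adjusted p = 4.94e-07, edgeR), where 20.4% passed as higher, 9 of the 10 neuron-only genes were higher by 0.27 to 0.55 and the ratio was at most 28.1 per 1000. Chrnb4 was called higher in macrophages (log2 0.61, adjusted p = 0.00252, edgeR; 30.2% passed as higher), but its libraries had 16.3 and 11.1 CPM in macrophages against 11.4 and 11.0 CPM elsewhere, and library 2 alone gave 0.02. There 5 of the 10 neuron-only genes were higher and 1 lower (median log2 0.19). It was also called in myelinating Schwann cells (25.5 and 24.4, against 11.8 and 10.8 CPM; adjusted p = 0.043, edgeR), where 7.23% passed as higher, from 12 and 12 UMIs; 4 of 7 alternatives lost that call. In these cells 7 of the 10 neuron-only genes were higher and 0 lower (median log2 0.66), and the Chrnb4 ratio, 9.95 and 9.21 per 1000, was within the range of the other classes. The scaling of the libraries (TMM) added 0.46 in dendritic cells, 0.31 in macrophages, 0.26 in fibroblasts and 0.15 in endothelial cells to the plain log2 ratio of CPM, and took 0.14 from neurons.

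Ordered in CPM of all UMIs over neurons, droplets and the 9 classes of at least 100 cells, Chrna7 ran from Rxfp1-rich neurons (264 ± 16.9) to Shox2-rich neurons (73.5 ± 4.11) and other neurons (73.3 ± 18.6), which did not differ beyond their spread, then low-UMI droplets (55.2 ± 9.62), satellite glia (18.6 ± 0.427) and non-myelinating Schwann cells (12.9 ± 0.0162; SD, n = 2 throughout). Myelinating Schwann cells followed at 11.3 ± 5.54, within whose spread non-myelinating Schwann cells lie, and dendritic cells came last at 2.25 ± 0.824. Chrna3 was ordered otherwise. Low-UMI droplets (292 ± 5.54) and other neurons (277 ± 46.0) overlapped, Shox2-rich (180.5 ± 5.63) and Rxfp1-rich neurons (175 ± 0.853) did not differ beyond their spread, and myelinating Schwann cells led the rest at 49.3 ± 0.773. Chrnb4 followed Chrna3, with 97.6 and 116 in low-UMI droplets, 102 ± 31.2 in other neurons, 64.8 ± 7.29 among the Shox2-rich and 76.5 ± 8.59 among the Rxfp1-rich. Chrna9 was at 37.6 ± 11.8 among the Shox2-rich and 81.9 ± 18.7 among the Rxfp1-rich but 7.21 ± 7.41 in other neurons and 11.1 ± 0.228 in low-UMI droplets.

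Across 16 populations, the pair most alike among the members was Chrna3 and Chrnb4 (Pearson r = 0.976 in library 1 and 0.956 in library 2, of log2(CPM + 1)). Chrna3 and Chrna9 were less alike, at 0.572 and 0.627, and Chrna9 and Chrnb2 had the lowest r in library 1 (0.406, and 0.427 in library 2). The genes most like Chrna3 were Slc6a2, the noradrenaline transporter (0.984 and 0.981), Nsg2 and Celf6. Those most like Chrna7 were Scn3b, a sodium channel beta subunit (0.973 and 0.972), Epha5 and Hand2os1, and those most like Chrnb4 were Ddc, which makes dopamine from its precursor, Ptprn and Ppp2r2c. Chrna5 was most like Kcnh7, Snx21 and B230209E15Rik, Chrna9 most like Lrtm1, Kcnh5 and Gm48003 (r from 0.813 to 0.957), and Chrnb2 most like Pcsk2os1, Krt222 and Celsr3. Populations share libraries and differ in depth and in free RNA, so these r describe patterns only and have no p.

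The machinery around the receptor was present in part. Of 10 genes for chaperones and assembly, 5 were higher and 2 lower in neurons than elsewhere (median log2 0.41). Over all genes tested in neurons, 31.8% were higher and 37.2% lower (median -0.12), the background for this and the following lists. Among them, Ric3, which helps alpha7 reach the membrane, had 38.9 and 44.2 CPM in neurons, against 8.53 and 8.85 CPM elsewhere (log2 2.12, SE 0.14), and Tmem35a, the alpha7 chaperone NACHO, 26.1 and 19.3, against 6.54 and 5.89 CPM (log2 1.73, SE 0.19). Vsnl1, a calcium sensor, had 49.7 and 65.1 CPM in neurons, against 4.08 and 3.70 CPM (log2 3.73), and Ywhah, a 14-3-3 protein, 538 and 516, against 170 and 171 CPM (log2 1.49). Between the neuron types, Ric3 did not pass (27.5 and 37.1, against 45.5 and 45.7 CPM; log2 -0.55, adjusted p = 0.24, edgeR) and Tmem35a fell below the filter, while Vsnl1 (83.7 and 103, against 32.6 and 33.3 CPM; log2 1.44) and Nomo1 (log2 1.41) were higher in Shox2-rich neurons; of 9 tested, 2 were higher and 0 lower (median log2 0.12, against 0.01 over all genes, of which 5.34% were higher). In satellite glia, Ric3 was higher than in other non-neuronal cells (16.9 and 16.6, against 5.67 and 6.25 CPM; log2 1.53, SE 0.11). Of the 10 genes of this list, 4 were higher there and 1 lower (median log2 0.16). Over all genes tested in satellite glia, 34.2% were higher and 37.1% lower.

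Of 8 Ly6 family genes, small proteins of which several bind the receptor, 6 were tested in neurons: Lynx1 was higher (45.5 and 41.8, against 13.2 and 13.6 CPM; log2 1.57) and 2 were lower, beside 31.8% higher and 37.2% lower over all genes. Ly6e had 46.6 and 22.9 CPM in neurons, against 326 and 322 CPM. Lypd6b had 0 testing UMIs in neurons, against 160 and 137 in the other cells, and was at least 2.79-fold lower (floor of 3 UMIs per library). The list's median was -1.26, or -1.22 with Lypd6b at that bound. Of 16 postsynaptic clustering and anchoring genes, 9 were higher and 4 lower in neurons (median log2 0.75; all genes, 31.8% and 37.2%), led by the scaffold gene Dlgap2 (90.0 and 83.2, against 0.899 and 0.809 CPM; log2 6.52) and the adhesion gene Nrxn3 (log2 4.19), with Lrp4, the agrin receptor, lower (log2 -2.71). Nrxn3 was the only one of the 12 tested that passed between the neuron types, lower in Shox2-rich neurons like Chrna7 (50.2 and 50.3, against 188 and 232 CPM; log2 -2.10, SE 0.17; 6.31% of all genes were lower). The cells were clustered on genes that include these, although on other UMIs.

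Of 8 genes for acetylcholine turnover, 5 were tested in neurons, of which 2 were higher and 3 lower (median log2 -0.26; all genes, 31.8% and 37.2%). Genes for making acetylcholine were almost undetected. Chat, the enzyme that makes it, had 1 and 2 UMIs and Slc18a3, its vesicular transporter, 2 and 3 UMIs in whole libraries. Ache, which breaks it down at the synapse, had 145 and 136 CPM in neurons, against 29.2 and 27.8 CPM elsewhere (log2 2.16, SE 0.08), and Colq, which anchors it outside the cell, 19.5 and 14.5, against 0.924 and 0.908 CPM (log2 4.07). Prima1, which anchors it in membranes, was lower in neurons (12.9 and 8.04, against 59.7 and 57.1 CPM; log2 -2.60), as was the related Bche (log2 -1.72). Both stood out in satellite glia, Prima1 with 154 and 149 CPM, against 27.4 and 26.2 CPM in other non-neuronal cells, and Bche with 73.8 and 77.2, against 13.7 and 12.97 CPM (log2 2.54 each). Of the 7 other nicotinic subunits, 1 was tested in neurons, the muscle subunit Chrnb1, which did not pass (log2 -0.58, adjusted p = 0.32, edgeR).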

How the data were processed

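Counts of both libraries were analysed as deposited: per the submitters' processing notes, the authors used Cell Ranger 6.1.2 and the build mm10, and the deposited tables hold whole UMI counts per gene and barcode. All barcodes but 1, itself called a doublet, passed minimums of 500 genes and 1000 UMIs and a maximum of 20% mitochondrial UMIs, and Scrublet doublets were removed. Each UMI went to the clustering or the testing portion with probability 0.5. Cells were clustered with scanpy 1.11.5 and leidenalg 0.10.2 (3000 variable genes, 30 components, 15 neighbours, resolution 1; 0.8 within neurons), without the 9 members, and named from marker lists. Testing UMIs were summed per library and population, 4 sums a comparison with 1 residual degree of freedom, and tested with edgeR 4.0.16 (quasi-likelihood test, filterByExpr, TMM, library as a block, Benjamini-Hochberg adjusted p under 0.05). The block is the library itself: both populations of a comparison come from the same library, since both sums are taken from its cells. edgeR pools the spread between libraries over genes. The pooling was complete (infinite prior degrees of freedom) between the neuron types, for low-UMI droplets and for non-myelinating Schwann cells. In those comparisons the p-values do not measure a gene's own spread between the libraries.

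The members and gene lists were chosen with earlier results of these data known. Genes of the lists were named where they passed in the comparison of neurons with other cells, up to 4 a list by size of the fold change, Chrnb1 and Nomo1 were named after their values were seen; likeness is Pearson r of log2(CPM + 1) over 16 populations, ranked by the lower r of the libraries among genes of at least 10 CPM in neurons, 3 named per member. In simulated counts for Shox2-rich against Rxfp1-rich neurons (9605 genes), 75% of genes changed by log2 1 and 99% of those changed by log2 2 were recovered. In that run 8 unchanged genes were called. Genes as sparse as Chrnb2 were not among those changed, and every gene had the same spread beyond counting error. The rates therefore do not cover Chrnb2, or Chrna9 with its UMIs in few cells. The libraries differed beyond counting error (median chi-square 0.927 over satellite glia genes, against 0.455) and were kept as 2. Alternatives were DESeq2 1.42.0, other size factors, no filter, no block, all UMIs, another random split, a finer clustering, deep neuron clusters only and each library left out; 2 on which droplets count as neurons were added after seeing the data. Intervals of shares cover counting error only. Those of log2 fold changes rest on the SE of the edgeR test, which holds the pooled spread between libraries, and on a normal distribution. Values of some single genes of the lists are not reported here.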

Additional observations from a re-analysis of the deposited data

How the results depend on the processing

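The 6 members higher in neurons passed under all 10 alternatives that gave a test. Between Shox2-rich and Rxfp1-rich neurons, 3 members passed; DESeq2 called 1 (Chrna7), and the genes called numbered 266 with DESeq2 and 669 with another random split of the UMIs, in place of 1115. For low-UMI droplets against the deep neurons, DESeq2 called 4544 genes in place of 8036; for satellite glia, 7051 in place of 12468. Of 14 calls of a member in a non-neuronal class, DESeq2 kept 4. Without the replicate block the same numbers of members passed (6, 3, 4 and 14), with 786 genes called between the neuron types. No called result changed sign under these alternatives. The share of Rxfp1-rich neurons with Chrna7 in library 1 was 96.4% with all UMIs and 76.8% at 5000 UMIs. With either library left out there is no test, and a fold change is then the other library's plain ratio of CPM, without scaling; 15 values without library 1 and 9 without library 2 moved by more than the SD between the libraries. Those that moved furthest were log2 values of Chrna7 in dendritic cells (-2.47 without library 1, in place of -1.46) and Chrnb4 in macrophages (0.02 without library 1, in place of 0.61). Chrna9 between the neuron types was not counted as moved, although its libraries gave -1.86 and -0.44 around the fitted -1.16. The SD is taken from the same libraries, so this rule cannot count a wide gap between them as a move. The Chrna7 level in Rxfp1-rich neurons was 252 to 276 CPM. The causes were not tested. Low counts limit Chrna5 (11 testing UMIs per library in Shox2-rich neurons) and Chrnb2 (6 and 7).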
